A study of Mirounga angustirostris with 8 samples.

Results

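Sarcomeric myosin heavy chains, the motor proteins of the striated-muscle thick filament, were sought in northern elephant seal (NES) skeletal muscle by the gene symbols MYH1, MYH2, MYH3, MYH4, MYH6, MYH7, MYH7B, MYH8 and MYH13. Of these 9 symbols, 1 matched a row of the read-count table, MYH7B, out of 24338 rows that name a gene. The other 8 were not analysed here, so neither the balance of fast and slow heavy chains nor the share of MYH7B among them is given. Of those rows, 16219 carry another name and 8119 carry LOC identifiers that nothing used here pairs with a symbol. The LOC rows held 5.89 to 7.67% of the counts of a library. None was taken for a heavy chain.

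Each heavy chain pairs with another to form a motor with a globular head, which splits ATP and pulls on actin, and a long coiled tail, which packs into the filament. The isoform in a fiber sets much of its contraction speed, and trunk muscle of adult mammals generally mixes a slow isoform with several fast ones. For NES, the study cites earlier work that found fast fibers in pups and almost none in adults. MYH7B is an old branch of the family, close to the slow and cardiac isoforms, and an intron of the gene carries a microRNA of the slow-muscle program. In mammalian trunk muscle its transcript is known to be spliced largely into forms that yield no full-length motor, and the protein is best known from eye muscle and muscle spindles. Counts per gene do not separate those spliced forms, and poly-A selection does not capture the mature microRNA.

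The 8 libraries came from the longissimus dorsi, the long muscle beside the spine, of adult female NES that were ashore, fasting and less active during the annual molt. The 4 pre-molt libraries (labelled early molt) were biopsied at most 5 days after the seals reached the beach, from seals 5572, 5842, 6762 and C497. The 4 post-molt libraries (labelled late molt) came from seals 4448, 5572, 9678 and X410. The study puts its later biopsies 34 days after the first on average, a figure for the whole study and not for these libraries. Only seal 5572 has a library at both times, and the other animals differ between the groups, so time and animal cannot be told apart outside that seal. The study had sequenced more biopsies and retained, per time, the 4 richest in unique reads, and it counted NES reads on the genes of another seal, the Hawaiian monk seal. That selection was made because some samples sequenced poorly from low-quality RNA. RNA quality per library was not assessed here. Library totals ran from 30769570 to 61216192 counts. Skeletal muscle fiber markers (ACTA1, CKM, TTN, NEB, DES and MB) summed to 160908 to 276609 CPM (reads per 1000000 counted reads), and 7 heart markers summed to 131 to 441 CPM. Of the fiber markers, TTN and NEB varied far more than the summed level. TTN ran from 1152 to 28784 CPM pre-molt and from 1629 to 25266 CPM post-molt. NEB ran from 645 to 5778 CPM pre-molt and from 954 to 6485 CPM post-molt. Between the groups, 5 of the 6 fiber markers had a lower estimate post-molt and 1, MB, a higher one. ACTA1 had a log2 difference of -0.93 ± 0.25 (adjusted p = 0.123 by edgeR and 0.00435 by DESeq2). MB had a log2 difference of 0.67 ± 0.23 (adjusted p = 0.248 by edgeR and 0.0301 by DESeq2). The causes of these differences were not tested. Of the heart markers, NPPA and MYL7 had 0 counts in every library and NPPB and MYBPC3 were under 1 CPM, while SLN, which some skeletal fibers also express, had 118 to 423 CPM. The cardiac troponin gene TNNI3 had 12.0 to 17.0 CPM pre-molt and 18.01 to 65.7 CPM post-molt, a log2 difference of 1.40 ± 0.34 (adjusted p = 0.0844 by edgeR and 0.00529 by DESeq2). In bulk muscle, fewer fibers of a type and less RNA per fiber cannot be told apart.

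MYH7B was well covered, and its level overlapped widely between the groups. Pre-molt, seal 5842 had 1738 CPM, seal 5572 had 1612 CPM, seal 6762 had 934 CPM and seal C497 had 917 CPM, each scaled by TMM factors that adjust for RNA composition. The pre-molt libraries thus lay as a pair of higher and a pair of lower values with no library between them. Post-molt, seal 4448 had 1880.0 CPM, seal 5572 had 1839.9 CPM, seal 9678 had 1358 CPM and seal X410 had 1003 CPM. The highest post-molt library exceeded the highest pre-molt library and the lowest post-molt library exceeded the lowest pre-molt library, but post-molt 9678 and X410 lay below the upper pair of pre-molt libraries. Post-molt was the higher value in 12 of the 16 pairs made of 1 library from each group.

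**Figure D1:**
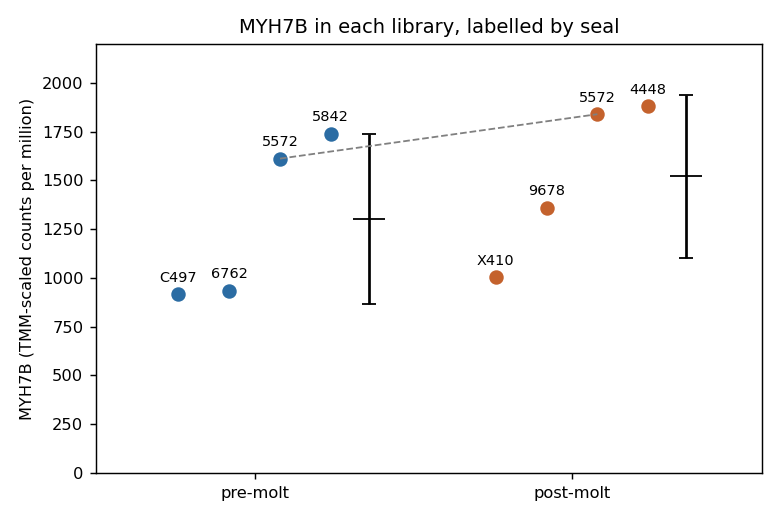
MYH7B in TMM-scaled CPM (y axis) in 4 pre-molt and 4 post-molt libraries (x axis). Each dot is 1 library labelled by seal, the black bars are the group mean ± 1 SD, and the dashed line joins the libraries of seal 5572. The pre-molt dots run from 917 to 1738 CPM and the post-molt dots from 1003 to 1880.0 CPM, so the groups overlap.

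The mean of MYH7B was 1300.1 ± 436 CPM pre-molt and 1520.4 ± 418 CPM post-molt (SD, n = 4 per group). The log2 fold change, post-molt over pre-molt, was 0.23 ± 0.28 (SE) in edgeR's quasi-likelihood test, with a p of 0.855 after Benjamini-Hochberg adjustment over 14312 genes. MYH7B was therefore not called, where 0.349% of all genes tested were called (31 higher and 19 lower). The fold change was 1.17, with a 95% confidence interval from 0.766 to 1.79, which spans both a lower and a higher post-molt level. An exact two-sided permutation test over the 70 divisions of the 8 libraries gave p = 0.514 for the difference in mean log2 CPM, where 0.029 is the smallest p this design allows. DESeq2 gave 0.23 ± 0.29 (adjusted p = 0.759; it called 5.89% of the genes it tested) and limma-voom 0.24 (adjusted p = 0.708; it called 0.657%). The unadjusted edgeR p was 0.437, where 11.4% of all genes tested were under 0.05. Across all genes tested, 33.4% had a smaller fold change than MYH7B in either direction, and the median gene stood at -0.04.

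In the animal sampled at both times, seal 5572, MYH7B was at 1612 CPM early and 1839.9 CPM late, a ratio of 1.14. That ratio rests on 1 biopsy per time and has no replicate. The gene had 67800 reads in the early library and 66276 in the late one.

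The reads of MYH7B numbered 42114 to 131207 per library, which puts the counting error (coefficient of variation, CV) at 0.276 to 0.487%. Between libraries of 1 group, which differ in animal, biopsy and library preparation together, the CV was 33.5% pre-molt and 27.5% post-molt. The highest of the 8 libraries exceeded the lowest by a factor of 2.05. Among the genes of this muscle the spread was below the middle, since the biological coefficient of variation that edgeR estimated for MYH7B, 0.305, was below the median of 0.381 over all genes tested, and 34.9% of genes had a smaller one.

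MYH7B was also expressed on 2 other scales, both chosen after its values were seen. As a share of all counted reads with no scaling factor, it held 0.0962 to 0.146% of a pre-molt library and 0.107 to 0.214% of a post-molt library. The exact binomial 95% interval was 0.213 to 0.215% in post-molt 4448, the highest, and 0.0954 to 0.0970% in pre-molt 6762, the lowest, and covers counting error only. On that scale post-molt exceeded pre-molt by 0.40 log2 units (exact permutation p = 0.200). Relative to the summed reads of 10 slow contractile partner genes, MYH7B had 27.8 to 33.0 reads per 1000 pre-molt. Post-molt, this ratio was 49.7 in seal 4448, 38.7 in seal 5572, 30.4 in seal 9678 and 23.9 in seal X410. Post-molt 4448 and 5572 therefore lay above all 4 pre-molt libraries, X410 below them and 9678 within their range. The groups differed by 0.20 log2 units (exact permutation p = 0.429).

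**Figure D2:**
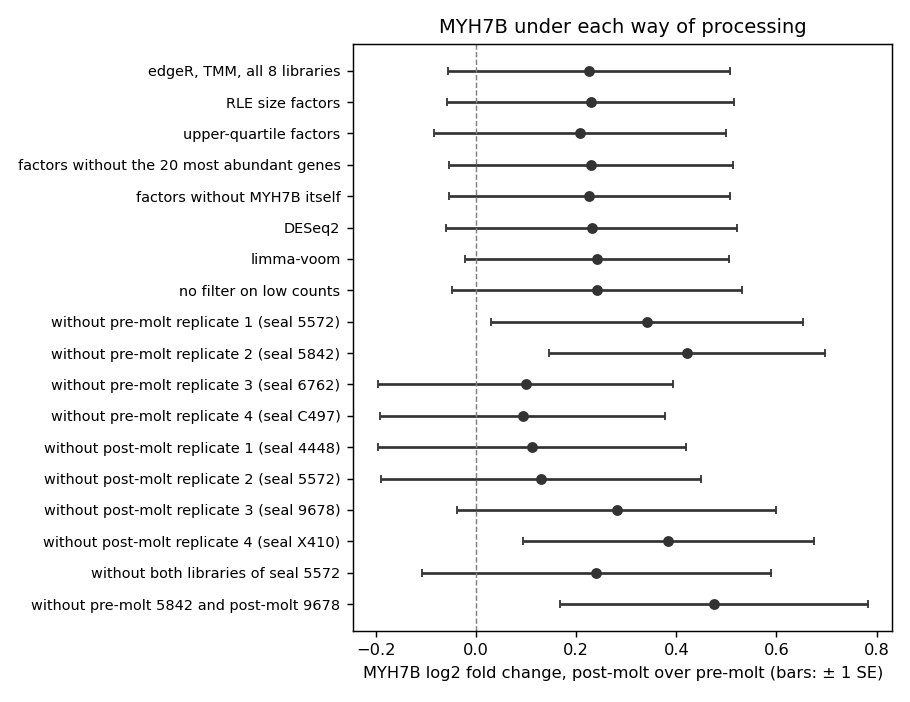
Log2 fold change of MYH7B, post-molt over pre-molt (x axis), under each normalization, test, filter and set of libraries (y axis). Points are estimates and bars are ± 1 SE. All points lie above 0, between 0.09 and 0.48, and 0 lies within 1 SE of 14 of the 18, the 8-library fit at the top included.

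The estimate moved with the animals left in. Without pre-molt C497 it was 0.09 and without pre-molt 5842 it was 0.42, both with all 4 post-molt libraries. Without both libraries of seal 5572 it was 0.24. The value was highest, 0.48, without pre-molt 5842 and post-molt 9678, which have the poorest unique mapping of their groups in the study's summary. The smallest unadjusted p among 17 other ways of processing was 0.153.

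In the RefSeq annotation of NES, MYH7B lies between GSS, a glutathione synthesis gene, and TRPC4AP, an adaptor gene of ubiquitin ligases, and the ends of MYH7B and TRPC4AP overlap. The counts were made on another species' annotation, in which this order was not checked. The strand used for counting is not given in the sources used here, so reads from that overlap cannot be assigned. TRPC4AP had 3333 to 9072 reads per library, fewer than the 42114 to 131207 of MYH7B. Its mean was 142 ± 19.4 CPM early and 103 ± 16.4 CPM late, a log2 difference of -0.46 ± 0.19 (adjusted p = 0.344 by edgeR), of the other sign from that of MYH7B. GSS had 242 to 653 reads and a log2 fold change of -0.09 ± 0.31 (adjusted p = 0.955).

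Heavy chains outside the sarcomeric group also had rows. MYH9, MYH10 and MYH14 are non-muscle heavy chains, MYH11 is the smooth muscle chain, and 0 of these 4 were called by edgeR (0.349% of all genes tested) or by DESeq2 (5.89%). At an unadjusted edgeR p under 0.05, as were 11.4% of all genes, there was 1, MYH9. MYH9 averaged 221 ± 180 CPM before and 110.3 ± 15.6 CPM after the molt (-1.01 ± 0.42, adjusted p = 0.365). Its pre-molt mean rests on seal C497, with 485 CPM against 95.3 to 188 in the other 3, which is the library where MYH7B was lowest, and its fold change without that library was -0.27. MYH10 had a log2 fold change of -0.43 ± 0.22 (adjusted p = 0.505), MYH11 of -0.76 ± 0.56 (adjusted p = 0.693; -0.24 without pre-molt 5842, -0.47 without post-molt 4448 and -1.72 without post-molt 5572) and MYH14 of 0.17 ± 0.20 (adjusted p = 0.849). Smooth muscle and pericyte markers summed to 109 to 260.0 CPM pre-molt and 117 to 281 CPM post-molt, and their part in the MYH11 value was not tested. MYH15, another muscle heavy chain, had 0 reads in all 8 libraries, which allows up to 0.0430 to 0.0968 CPM (3 reads).

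The light chains clamp and tune the neck of the motor head. Of 7 light chains of striated muscle tested, edgeR called 0 (0.349% of all genes tested), and MYL1 was the 1 gene with an unadjusted p under 0.05, as were 11.4% of all genes. DESeq2 called 0 of the 6 to which it gave an adjusted p (5.89% of all genes), and gave MYL6B none. All 7 had negative fold changes, with a median of -1.16 against -0.04 for all genes. That median is the value of MYL4 (-1.16 ± 1.23), which had only 0 to 10.5 CPM, and MYL5 had 1.33 to 11.5 CPM. The slow ventricular-type chains MYL2 (-0.14 ± 0.26, adjusted p = 0.914) and MYL3 (-0.20 ± 0.36, adjusted p = 0.914) had estimates near 0. The fast chain MYL1 had a log2 fold change of -2.57 ± 0.78 (adjusted p = 0.183), or -1.56 without pre-molt 5842. MYL1 was at 2272 CPM in pre-molt 5842 and 1051 CPM in pre-molt C497, and at 131 and 163 CPM in the other pre-molt libraries. The post-molt libraries ran from 72.6 to 252 CPM, so those values overlapped the lower pre-molt pair. MYLPF, the fast regulatory chain, was at 2931 CPM in pre-molt 5842 and 1582 CPM in pre-molt C497, against 14.1 and 12.6 CPM in the other pre-molt libraries. All 4 post-molt libraries (39.7 to 270.4 CPM) lay between those pairs. Its log2 fold change was -2.60 ± 1.28 by edgeR (adjusted p = 0.481), -0.17 by limma-voom and -1.52 without pre-molt 5842. MYL6B was at -1.47 ± 0.71 (adjusted p = 0.468), at -0.72 by limma-voom and at 0.17 without pre-molt 5842.

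Fast contractile partners differed among themselves in how they split the pre-molt animals. In 5 of 10 (TNNT3, TNNI2, TNNC2, TPM1 and ATP2A1) pre-molt 5842 and C497 both lay above the other pre-molt libraries, while C497 was the lowest pre-molt library in 3 (MYBPC2, ACTN3 and MYOZ1). Of the 10 tested, edgeR called 0 (0.349% of all genes tested) and 6 were lower at an unadjusted p under 0.05 (11.4% of all genes, in either direction). DESeq2 called 1 lower of the 9 to which it gave an adjusted p (5.89% of all genes, in either direction). All 10 had negative fold changes, with a median of -1.12. Among them PVALB had only 0 to 1.24 CPM (-0.86 ± 2.01), and it counts toward the averages below. The thick filament protein gene MYBPC2 was at -1.39 ± 0.37 (adjusted p = 0.123, DESeq2 adjusted p = 0.00755), the calcium sensor TNNC2 at -2.03 ± 0.72 (adjusted p = 0.263; -1.33 by limma-voom and -1.07 without pre-molt 5842) and the Z-disc gene ACTN3 at -0.67 ± 0.24 (adjusted p = 0.268). Averaged over these genes, log2 CPM was 9.77 in pre-molt 5842 and 9.55 in pre-molt C497, 7.40 and 7.07 in the other pre-molt libraries, and 7.29 to 8.18 post-molt. MYH7B had its highest pre-molt value in 5842 and its lowest in C497.

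Slow contractile partners had fold changes centered near 0. Of 10 tested, edgeR called 1 higher (0.217% of all genes tested were called higher) and DESeq2 called 2 higher (5.89% of all genes, in either direction). The median was 0.03, with 5 positive and 5 negative values. The called gene was ATP2A2, the slow-fiber calcium pump, whose 4 post-molt libraries (5303 to 8069 CPM) lay above the 4 pre-molt libraries (2955 to 3278 CPM). The groups did not overlap, in one direction or the other, in 9.16% of all genes tested. The log2 fold change of ATP2A2 was 1.09 ± 0.20 (adjusted p = 0.0419, DESeq2 adjusted p = 4.38e-08). The edgeR call was kept in 1 of 8 fits that left out a library, the one without pre-molt 5842. In the others the edgeR adjusted p ran up to 0.122. Over the 8 fits the log2 fold change of ATP2A2 ran from 1.002 to 1.197. PLN, the inhibitor of that pump, was at 0.65 ± 0.23 (adjusted p = 0.250, DESeq2 adjusted p = 0.0414) and the slow-fiber scaffold CSRP3 at -1.39 ± 0.71 (adjusted p = 0.513). CSRP3 ran from 18.1 to 738 CPM pre-molt and from 84.7 to 215 CPM post-molt, and was at -0.55 by limma-voom and -0.89 without pre-molt 5842 and post-molt 9678. Averaged over these genes, log2 CPM was 9.88 to 11.23 pre-molt and 10.65 to 10.97 post-molt.

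**Figure D3:**
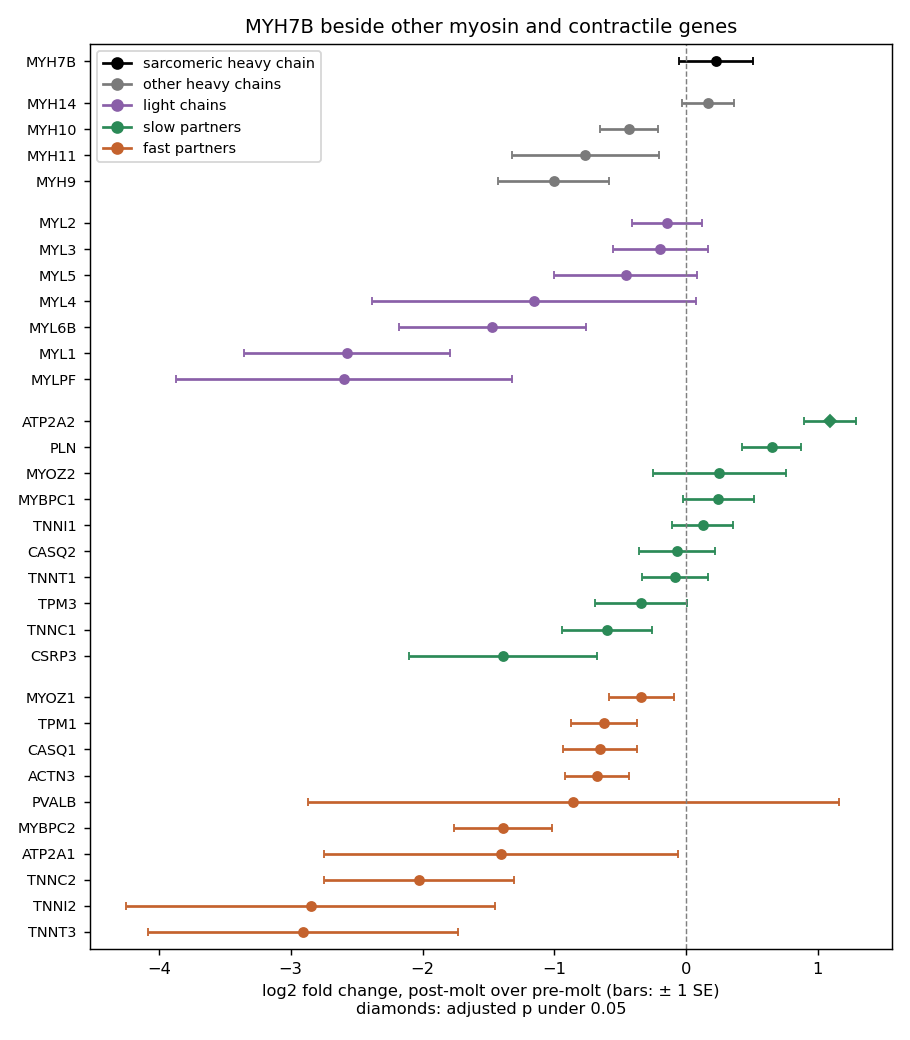
Log2 fold change, post-molt over pre-molt (x axis), of MYH7B, other myosin heavy chains, light chains and slow and fast contractile partners (y axis, grouped by color). Bars are ± 1 SE over 4 libraries per group, and the diamond marks the gene with an adjusted p under 0.05, ATP2A2 at 1.09. MYH7B is at 0.23 and the slow partners lie on both sides of 0, whereas all 10 fast partners and all 7 light chains are at negative values.

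Chaperones and thick filament partners fold the heavy chain head, or anchor and turn over the filament. Of 13 tested, edgeR called 1 lower (0.133% of all genes tested were called lower), and DESeq2 called 1 (5.89% of all genes), with a median of -0.20. That gene was MYOM2, an M-band cross-linker of thick filaments (-2.13 ± 0.32, adjusted p = 0.0177, DESeq2 adjusted p = 9.94e-09). It ran from 895 to 2128 CPM pre-molt and from 210.1 to 474 CPM post-molt without overlap, as in 9.16% of all genes. The edgeR call ended in 3 of 8 fits that left out a library, those without pre-molt 5572, post-molt 4448 or post-molt 5572, with adjusted p up to 0.0711. Over the 8 fits the log2 fold change of MYOM2 ran from -2.32 to -1.90. MYOM1 was at -0.60 ± 0.22 (adjusted p = 0.290) and the muscle ubiquitin ligase gene TRIM55 at -0.37 ± 0.21 (adjusted p = 0.559). The myosin head chaperone UNC45B averaged 565 ± 60.7 CPM before and 540 ± 42.4 CPM after the molt (-0.07 ± 0.18, adjusted p = 0.948).

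Developmental and regeneration genes, as listed here, mix markers of new or regrowing fibers with genes of muscle stem cells and of mature fibers. Of 10 tested, edgeR called 0 (0.349% of all genes), and the median was -1.07. By unadjusted edgeR p, 1 was higher and 2 were lower at under 0.05 (11.4% of all genes). DESeq2 called 1 higher of the 8 to which it gave an adjusted p (5.89% of all genes). MYF6, the myogenic factor of mature fibers, averaged 150.2 ± 33.4 CPM before and 289 ± 75.4 CPM after the molt (0.94 ± 0.24, adjusted p = 0.0955, DESeq2 adjusted p = 0.00467). NCAM1, an adhesion gene of new and denervated fibers, was at -1.29 ± 0.44 (adjusted p = 0.235), or -0.71 without pre-molt C497. The differentiation factor MYOG was at -1.89 ± 0.77 (adjusted p = 0.348), or -1.20 by limma-voom and -0.93 without pre-molt 5842. MYOG had only 0.96 to 12.2 CPM pre-molt and 0.97 to 2.06 CPM post-molt. PAX7 (0 to 2.33 CPM) and MYF5 (0 to 4.22 CPM) also count toward the median of this list.

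Regulators of heavy chain expression include the MEF2 and NFAT factors that act downstream of calcium and nerve activity and the nuclear receptors of oxidative fibers. Of 31 tested, edgeR called 1 higher (0.217% of all genes) and DESeq2 3 (5.89% of all genes, in either direction). Positive fold changes were found in 27, where 46.5% of all genes had one, with a median of 0.38 against -0.04 for all genes. By unadjusted edgeR p, 4 were higher and 1 was lower at under 0.05 (11.4% of all genes, in either direction). The lower gene was the nuclear receptor PPARD, at -0.94 ± 0.33 (adjusted p = 0.249). The called gene was VGLL2, a muscle cofactor of TEAD factors. It had 16.6 to 51.5 CPM pre-molt and 91.2 to 101.0 CPM post-molt (1.76 ± 0.32, adjusted p = 0.0419, DESeq2 adjusted p = 2.29e-05). Its groups did not overlap, as in 9.16% of all genes. The edgeR call was kept in 1 of 8 fits that left out a library, with adjusted p up to 0.109 in the others. That fit was without pre-molt C497, the pre-molt library in which VGLL2 was highest. Over the 8 fits the log2 fold change of VGLL2 ran from 1.59 to 2.23. PURB, a repressor of heavy chain genes, had 45.6 to 75.6 CPM pre-molt and 107 to 154 CPM post-molt (0.94 ± 0.21, adjusted p = 0.0710, DESeq2 adjusted p = 5.93e-04). MEF2D was at 0.50 ± 0.17 (adjusted p = 0.224, DESeq2 adjusted p = 0.0119). Fibroblast markers summed to 412 to 1355 CPM pre-molt and 169 to 443 CPM post-molt, and their part in these list values was not tested.

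Genes whose pattern over the 8 libraries was most like that of MYH7B were PRPF40B, DMAC2 and ISYNA1. Likeness was measured by Pearson's r of log2 CPM over 6937 named genes with a mean of at least 10 CPM. It is a description because these are the 3 highest values of that search and all genes of a library share its depth and scaling. PRPF40B, a splicing factor gene, had r = 0.95, DMAC2, an assembly factor gene of the respiratory chain, had r = 0.93 and ISYNA1, which makes inositol phosphate, had r = 0.93. PRPF40B was at 41.99 CPM in pre-molt 5572, 39.6 in pre-molt 5842, 23.0 in pre-molt 6762 and 22.6 in pre-molt C497, the same split into a higher and a lower pair as MYH7B. Post-molt it was at 53.5 CPM in seal 4448, 39.1 in seal 5572, 38.3 in seal 9678 and 25.6 in seal X410, the order of MYH7B. None of the 3 was called by edgeR (adjusted p = 0.789 for PRPF40B, 0.840 for DMAC2 and 0.915 for ISYNA1), and their unadjusted p were 0.302, 0.388 and 0.602. Their fold changes, like that of MYH7B, moved with the animals left in, for ISYNA1 from 0.03 without post-molt 5572 to 0.49 without post-molt X410. No contractile partner was among the 20 highest. Among the slow partners r with MYH7B ran from -0.27 (PLN) to 0.77 (TPM3). Among the fast partners r ran from -0.73 (PVALB, at or near 0 CPM) to 0.57 (MYOZ1). The median r over the 6937 genes was -0.05.

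**Figure D4:**
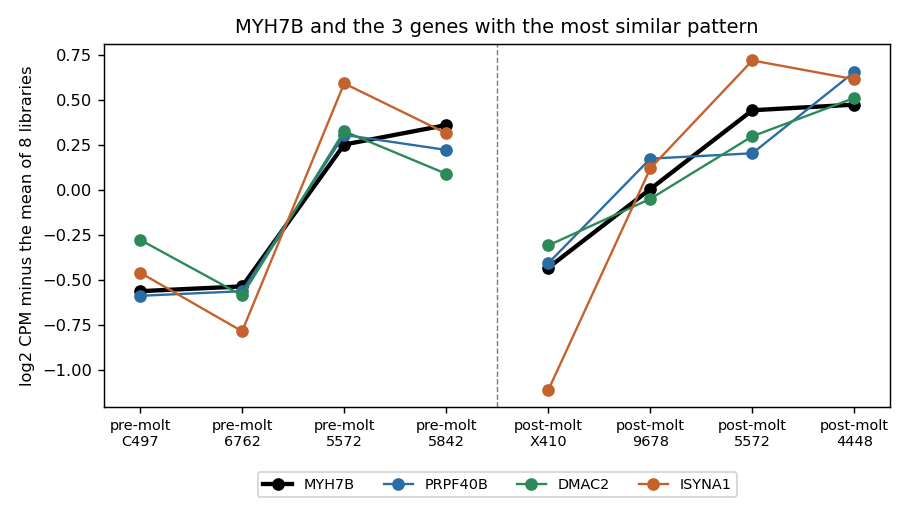
Log2 CPM minus the mean of the 8 libraries (y axis) for MYH7B and the 3 genes with the highest Pearson r to it, in each library (x axis, by group and in order of MYH7B). Each dot is 1 library. PRPF40B, with r = 0.95, is low in pre-molt C497, pre-molt 6762 and post-molt X410 together with MYH7B, and ISYNA1 has the widest range of the 4 genes.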

How the data were processed

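Per the study's methods, paired reads were aligned by STAR on a Hawaiian monk seal assembly with its NCBI annotation and summed per gene by STAR's own counter. The authors deposited raw counts, which are whole numbers with no scaling. The submitters' processing notes name bcl2fastq 2.20, R 3.4.3 and DESeq2 1.18.1. The labels and the study's methods name different library kits. Multi-mapped reads are left out by this counting, which lowers counts where gene family members are near-identical. The 11 rows that name no gene (0.0173 to 0.0259% of counts) were left out. No library was a copy of another (chi-square of at least 98.96 per degree of freedom in 28 pairs).

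Genes passing filterByExpr (minimum count 10, minimum total count 15; 14312 of 19401 with a count, MYH7B among them) were compared, post-molt against pre-molt, with edgeR 4.0.16 in R 4.3.3 (TMM factors, quasi-likelihood test, Benjamini-Hochberg adjustment, threshold 0.05). DESeq2 1.42.0, limma 3.58.1 (voom), other factors, no filter and left-out libraries were alternatives. Log2 CPM used a prior count of 2. Tests were checked on simulated data. The heavy chain symbols and gene lists were chosen with earlier results of these data known. Named were all heavy chains sought, every called gene and the 3 smallest p of each list, and the 3 genes most like MYH7B. MYH14, MYL2, MYL3, UNC45B, TNNI3, SLN, ACTA1, MB, TPM3, PPARD, PAX7 and MYF5 were added after their values were seen. So were the fast partners TNNT3, TNNI2, TPM1, ATP2A1 and MYOZ1, and the neighbours GSS and TRPC4AP. Where nothing shows how biopsies were processed together, p-values measure the spread between these libraries.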

Additional observations from a re-analysis of the deposited data

Results flagged for a closer look

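In 5 of 50 groups of 4 libraries examined (MYH7B and the 24 other genes named by rule, in each group), 1 library lay apart by Dixon's criterion at the 95% level. MYH7B was not among them. For independent, normally distributed values chance gives about 1 of 20 groups. That rate need not hold here, since the values are CPM without logs, the genes share libraries and many were named by small p. MYH11 was at 52.0 CPM in pre-molt 5842, against 17.0 to 21.9 in the other 3, and at 39.4 CPM in post-molt 5572, against 5.65 to 10.97. MYL6B was at 2577 CPM in pre-molt 5842, against 181 to 391. ATP2A2 was at 2955 CPM in pre-molt 5572, against 3234 to 3278. MYF6 was at 401 CPM in post-molt X410, against 239.8 to 262.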

How the results depend on the processing

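MYH7B kept a positive log2 fold change and no call in all 17 alternatives planned and on the 2 scales added after seeing the data (0.40 and 0.20). It ranged from 0.09 to 0.42 with 1 library left out and from 0.21 to 0.48 under the others, with adjusted p from 0.708 to 0.964. The number of heavy chains called stayed 0. Genes called over the whole table numbered 50 by edgeR, 640 by DESeq2, 94 by limma-voom and 225 without the filter on low counts, 9 to 48 with 1 library left out, 5 without both libraries of seal 5572 and 0 without pre-molt 5842 and post-molt 9678.

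Counts of called genes in the lists moved as follows. DESeq2 called 1 fast partner, 2 slow partners, 1 developmental gene and 3 regulators. Upper-quartile factors called 0 slow partners, and without the filter 0 slow partners and 2 regulators were called. Leaving out 1 library gave 0 to 1 slow partners, 0 to 1 chaperones and thick filament partners and 0 to 1 regulators. Without both libraries of seal 5572, and without pre-molt 5842 and post-molt 9678, each of these 3 lists had 0. MYL6B, at -1.47, was at 0.17 without pre-molt 5842 and at 0.40 without that library and post-molt 9678. The causes were not tested. Of 408 pairs of another named gene and an alternative, 374 kept direction and call, 25 lost a call, 6 gained one, 2 changed sign and 1 had no adjusted p. All 25 lost calls belong to ATP2A2, MYOM2 and VGLL2, the only named genes that edgeR called with all 8 libraries. Most of the 374 pairs are uncalled genes that stayed uncalled. No paired analysis was possible because 1 seal alone has libraries at both times. Shares among heavy chain reads were planned and not run, since 1 member had a row. Counting error was computed for MYH7B alone.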
